A study of Danio rerio with 16 samples.

Results

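The genes described here lie on the long arm of zebrafish chromosome 4. They were the rows of the deposited count table placed on chromosome 4 with a first exon start at or beyond 28 Mb of the GRCz11 assembly. Of 32520 genes in the table, 1643 met this rule after 1 gene with a pimr symbol was left out. They were compared with 736 genes on the rest of chromosome 4 and 29640 genes on the other chromosomes.

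RNA was sequenced from testes of AB strain zebrafish of which some were diploid and some triploid, and of which some had received EE2 (17α-ethinylestradiol, an estrogen made for contraceptive pills) and the others served as controls. Each ploidy thus had a control group and an EE2 group, of 4 libraries apiece. All groups shared the tissue, the strain and the male gonad as source. Dose, length of exposure, age, how triploidy was made and whether a library held 1 fish or a pool are not stated in the labels. A p-value therefore reflects the scatter among these libraries, which may be technical.

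The long arm of chromosome 4 is known as the most unusual stretch of the zebrafish genome. It is rich in repeats and heterochromatin, replicates late, and carries large families of zinc finger genes, genes for NOD-like receptors (NLRs, sensors of innate immunity), copies of small nuclear and 5S ribosomal RNA genes, and the miR-430 cluster that clears maternal messenger RNA in the early embryo. In wild strains its end carries a region linked to sex, which laboratory strains such as AB are known to have lost.

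Library totals ran from 7052508 to 17369549 read pairs. Triploid EE2 replicate 2 bears the word outlier in its own title and was left out of the tests, which used 15 libraries, but its values are given. Diploid control replicate 1 had the lowest scaling factor, 0.785 against 0.972 to 1.06 in the other libraries, and the highest summed level of the arm's U1 genes, 234 CPM (counts scaled to library size) where the remaining libraries had 38.5 to 99.9. Germ cell markers, 6 genes, summed to 2800 to 4045 CPM in the 16 libraries. Oocyte markers, 10 genes, summed to 21.6 to 40.99 CPM, from buc with 8.13 to 22.6 CPM to figla with at most 0.44 CPM. Several chromosome 4 long arm genes took very different levels in libraries of the same group, as described first, before the groups are compared.

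The arm was a low-expressed part of the testis transcriptome. It took 0.394% to 0.556% of the read pairs of a library, against 1.77% to 2.35% for the smaller number of genes on the rest of the chromosome. By group, the arm share was 0.49% ± 0.0659 (SD, n = 4) in diploid controls, 0.469% ± 0.0342 (n = 4) in diploid EE2, 0.508% ± 0.0241 (n = 4) in triploid controls and 0.522% ± 0.0334 (n = 4) in triploid EE2. The triploid EE2 mean includes the titled outlier, which had the highest share of all libraries, 0.556%. The ranges of the 4 groups overlapped. The lowest share was that of diploid control replicate 1, 0.394% with a 95% Wilson interval of 0.390% to 0.399%. Such intervals cover counting error only. These shares are of unscaled totals. The same library had the lowest share on the rest of chromosome 4, 1.77%, and the lowest scaling factor, 0.785. Its low share was thus not particular to the arm.

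No read pair was counted for 231 arm genes, 14.1%, in any of the 16 libraries, against 1.90% of the genes on the rest of chromosome 4 and 4.38% on other chromosomes. A further filter on low counts left 738 arm genes for testing, 44.9%, where 79.6% and 72.3% of the genes passed in the other 2 regions. Among the tested genes with at least 200 bases of exon, the median level per length was 1.21 CPM per kb on the arm, 6.23 on the rest of the chromosome and 5.91 elsewhere. Read pairs with several alignments were left out of the counts by the counting program's default, so levels of genes with near-identical copies, common among these families, are uncertain.

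Levels were not even along the arm. From 30 to 72 Mb, 546 of 1332 genes were tested, 40.99%, and their median level was 0.931 CPM per kb. From 72 Mb to the end, 164 of 219 genes were tested, 74.9%, with a median of 2.67 CPM per kb. That end held 52 of the arm's 64 genes with an ordinary gene name, while the 30 to 72 Mb stretch held 133 of its 143 genes with a zinc finger symbol.

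The gene families of the arm, sorted by symbol alone, differed in how much of them was measured. Clone-named genes and genes without a symbol were not checked for zinc finger or NLR content. Zinc finger genes, which encode DNA-binding proteins, were tested in 112 of 143 cases, and together they gave 292 to 448 CPM. Clone-named genes, 716 in number and without an ordinary name, were tested in 429 cases and gave 2173 to 2907 CPM. Both genes with an NLR name, nlrc3l2 and nlrp12l2, were tested. None of the 143 zinc finger genes was at 0 in all libraries.

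Small RNA genes were mostly below the filter. The arm has 148 U1 genes, whose RNA recognises the start of introns in splicing, and 22 of these were tested. None of 244 U6 genes, of 26 genes for 5S ribosomal RNA or of 54 mir430 genes was tested. The mir430 genes, at 28693371 to 28709534 on chromosome 4, together had 2 to 16 read pairs per library, and 33 of the 54 had none in any library.

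The highest levels per length in diploid controls belonged to the clone-named gene ENSDARG00000099355, at 154 CPM per kb, and to CCT2, a subunit of the cytosolic chaperonin that folds tubulin and actin, at 107.5 CPM per kb. The first was present in every library, at 223, 301, 264 and 218 CPM in diploid control replicates 1 to 4, 217, 256, 232 and 287 CPM in diploid EE2, 249, 327, 342 and 298 CPM in triploid controls and 232, 216, 272 and 282 CPM in triploid EE2. Next were si:dkey-29j8.3 and si:dkey-29j8.4, which lie near each other and had 95.9 and 95.6 CPM per kb, and ENSDARG00000117634 with 92.9 CPM per kb. A separate gene listed as cct2 had 91.2 CPM per kb, ENSDARG00000112073 had 62.6 and TTLL1, a subunit of the enzyme that adds glutamate chains to tubulin, had 36.9. The neighbours si:dkey-29j8.3 and si:dkey-29j8.4 were both uneven between libraries of 1 group. The first had 164, 95.3, 148 and 317 CPM in diploid control replicates 1 to 4, 22.6, 76.8, 77.1 and 72.3 CPM in diploid EE2, 187, 68.8, 262 and 57.8 CPM in triploid controls and 139, 124, 83.8 and 181 CPM in triploid EE2. Its 4 diploid EE2 libraries were below the diploid controls, but the difference did not pass the test used for the comparisons.

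Levels of arm genes varied widely between libraries of the same group, a pattern noticed after the data were seen. The median biological coefficient of variation, the spread between libraries of a group beyond counting error, was 35.7% for the tested arm genes, 19.9% on the rest of chromosome 4 and 20.1% on other chromosomes. At a like level, from 0 to 2 in mean log2 CPM, it was 41.4% for 420 arm genes and 28.8% for 4772 genes of other chromosomes. From 2 to 4 it was 24.9% and 20.9%, and above 4 it was 15.4% on the arm and 15.98% on other chromosomes, so the gap was not present at high levels. Within the arm it was 43.1% from 30 to 72 Mb and 18.3% from 72 Mb on. The first principal component of the arm genes over the 16 libraries took 45.2% of their variance, against 25.2% on the rest of chromosome 4 and 23.7% to 41.9% on the 24 other chromosomes.

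Some arm genes were near 0 in some libraries and clearly present in others. This was counted over all libraries whatever their group, so a difference between groups can also meet the criterion. A level of at most 0.15 CPM in 2 or more libraries together with at least 2 CPM in 2 or more was met by 29 of 738 arm genes, 3.93%, against 1.22% of all genes tested. The shares were 0.683% on the rest of chromosome 4, 1.11% on other chromosomes and 4.10% on unplaced scaffolds and the mitochondrion. They were not matched for level, and arm genes had lower levels than those of the other chromosomes. The part of level in these shares was not tested. The near-0 values fell on few libraries: 19 of the 29 genes were near 0 in diploid EE2 replicate 1, 14 in triploid control replicate 4, 12 in triploid EE2 replicate 3, 10 in diploid EE2 replicate 2, and 9 each in diploid control replicates 1 and 4. In diploid control replicate 3, diploid EE2 replicates 3 and 4, triploid control replicate 2 and triploid EE2 replicate 2 none was near 0. The limit of 0.15 CPM stands for fewer read pairs in a shallow library. Diploid EE2 replicate 1 was the shallowest, with 7052508 read pairs, and the part of depth in these counts was not tested.

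The zinc finger gene znf1105, at chr4:64471942-64482414, shows the first of the recurrent patterns. Its levels were 0, 4.71, 4.503 and 7.903 CPM in diploid control replicates 1 to 4, 8.26, 0, 2.88 and 3.18 CPM in diploid EE2, 6.07, 6.496, 3.16 and 4.77 CPM in triploid controls and 2.56, 1.89, 5.61 and 2.03 CPM in triploid EE2. It was at 0 in diploid control replicate 1 and diploid EE2 replicate 2 and above 1.8 CPM in the other 14 libraries. The zinc finger gene znf1068, at 59748607 to 59757037, shows the second. It had 4.99, 2.83, 4.07 and 0 CPM in diploid control replicates 1 to 4, 0, 3.95, 3.05 and 2.24 CPM in diploid EE2, 2.903, 2.598, 4.74 and 0.183 CPM in triploid controls and 2.97, 4.37, 0.0985 and 3.66 CPM in triploid EE2. Here diploid control replicate 4, diploid EE2 replicate 1, triploid control replicate 4 and triploid EE2 replicate 3 were the low libraries, 1 in each group, and the pair at 0 for znf1105 was among the others.

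To see how far each pattern reached, arm genes were sorted by the 2 diploid EE2 libraries that lay at its opposite ends, replicates 1 and 2. A first set of 109 tested arm genes, 14.8%, was at least 4-fold higher in replicate 1, with at least 2 CPM there, against 1.99% of all genes tested. A second set of 36 arm genes, 4.88%, was at least 4-fold higher in replicate 2, against 0.9% of all genes tested. On other chromosomes the shares were 1.56% and 0.766%. These values chose the sets and describe only those 2 libraries. The other 14 libraries took no part in choosing the genes. The 2 libraries, however, were picked after the patterns had been seen across all 16, so the other 14 are no independent check.

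The summed level of the first set was 89.7, 387, 401 and 689 CPM in diploid control replicates 1 to 4, 684, 68.4, 377 and 355 CPM in diploid EE2, 477, 507, 282 and 598 CPM in triploid controls and 274, 392.2, 660 and 328 CPM in triploid EE2. Diploid EE2 replicates 1 and 2 lie at opposite ends through the choice itself. Among the 14 libraries that took no part in it, the sum ran from 89.7 to 689 CPM. Of the 6 diploid libraries among these, diploid control replicate 1 had 89.7 CPM, 4 libraries had 355 to 401 CPM and diploid control replicate 4 had 689 CPM. As a percentage of diploid EE2 replicate 1, they were at 13.1, at 51.9 to 58.6 and at 101. The 8 triploid libraries had 274 to 660 CPM, and none was as low as diploid control replicate 1.

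The summed level of the second set was 158, 80.3, 117 and 44.4 CPM in diploid control replicates 1 to 4, 12.7, 126, 99.7 and 97.5 CPM in diploid EE2, 70.98, 70.8, 109 and 16.1 CPM in triploid controls and 95.5, 143, 30.03 and 140 CPM in triploid EE2. Among the 14 libraries that took no part in the choice, triploid control replicate 4, triploid EE2 replicate 3 and diploid control replicate 4 had the 3 lowest sums of this set and the 3 highest sums of the first. A large part of some second-set sums came from 1 gene with a different pattern, si:ch211-108c17.2, described below. It gave 22.4 of the 44.4 CPM in diploid control replicate 4 and 12.6 of the 30.03 CPM in triploid EE2 replicate 3.

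**Figure D1:**
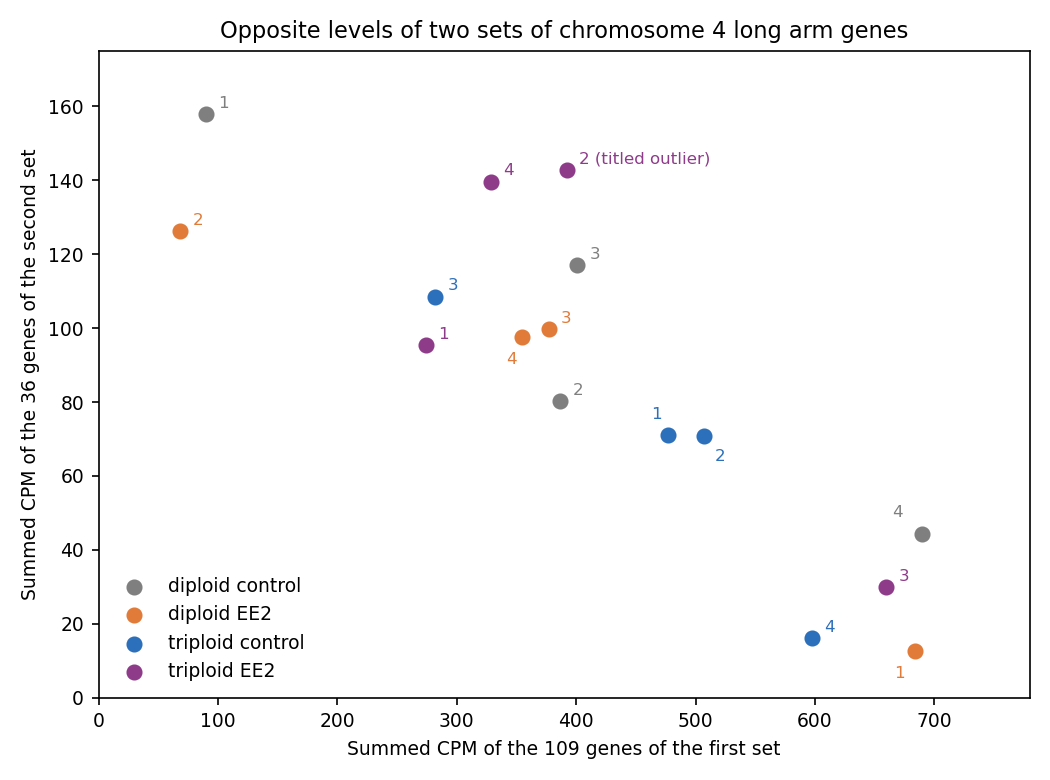
Each point is 1 library, with the summed CPM of the 109 first-set genes on the x axis and of the 36 second-set genes on the y axis, coloured by group and numbered by replicate. Diploid EE2 replicates 1 and 2 chose the sets, and among the other libraries diploid control replicate 1 had 89.7 and 158 CPM and diploid control replicate 4 had 689 and 44.4 CPM. Of the 44.4 CPM, the gene si:ch211-108c17.2 gave 22.4.

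The same libraries stood apart gene by gene. They had already been seen to share the patterns, so these counts describe the patterns and give no separate support. Diploid control replicate 1, which took no part in the choice, was below each of the 14 libraries other than diploid EE2 replicate 2 in 92 of the 109 first-set genes, 84.4%. Among the 335 genes of other chromosomes that passed the same 4-fold choice, this was so for 29, 8.66%. In the second set, diploid control replicate 4, triploid control replicate 4 and triploid EE2 replicate 3 were all below each of the 12 libraries other than diploid EE2 replicate 1 in 27 of 36 genes, 75%, against 0 of 164 genes on other chromosomes. The genes of other chromosomes that were high in diploid EE2 replicate 1 were lower in every other library, with a median log2 difference of -2.25 to -0.70. The first-set genes of the arm were lower in every other library too, with medians of -2.33 to -0.07. The values of diploid EE2 replicate 2, -2.25 off the arm and -2.32 on it, follow from the choice. In diploid control replicate 4, triploid EE2 replicate 3 and triploid control replicate 4 the arm medians were -0.07, -0.16 and -0.23. Off the arm they were -1.28, -1.76 and -1.96. In diploid control replicate 1 and triploid EE2 replicate 2 the arm was the lower, at -2.33 against -1.85 and -0.76 against -0.70.

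Diploid control replicates 1 and 4, the lowest and the highest of the 14 libraries in the first set, had totals of 7659779 and 13959219 read pairs. The order was the opposite in the libraries that chose the sets. Diploid EE2 replicate 2, low in the first set, had 16416378 read pairs, and diploid EE2 replicate 1, high in it, had 7052508. The part of depth in this split was not tested. In bulk tissue, fewer cells of a type and less RNA per cell cannot be told apart.

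The members of the sets lay in alternating blocks along the chromosome. In order of position, the 145 genes formed 10 runs of a single set, and 141 of them were in the 7 runs of at least 5 genes. First-set runs held 38 genes from 30.88 to 37.94 Mb, 20 genes from 39.06 to 41.39 Mb, 28 genes from 51.34 to 56.65 Mb and 22 genes from 63.25 to 66.02 Mb. Second-set runs held 9 genes from 45.15 to 49.13 Mb, 14 genes from 56.97 to 63.16 Mb and 10 genes from 68.39 to 71.86 Mb. The blocks did not cover all their genes: from 30 to 42 Mb, 58 of 181 tested genes were in the first set and 1 was in the second. From 42 to 44 Mb none of 44 tested genes was in either set.

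**Figure D2:**
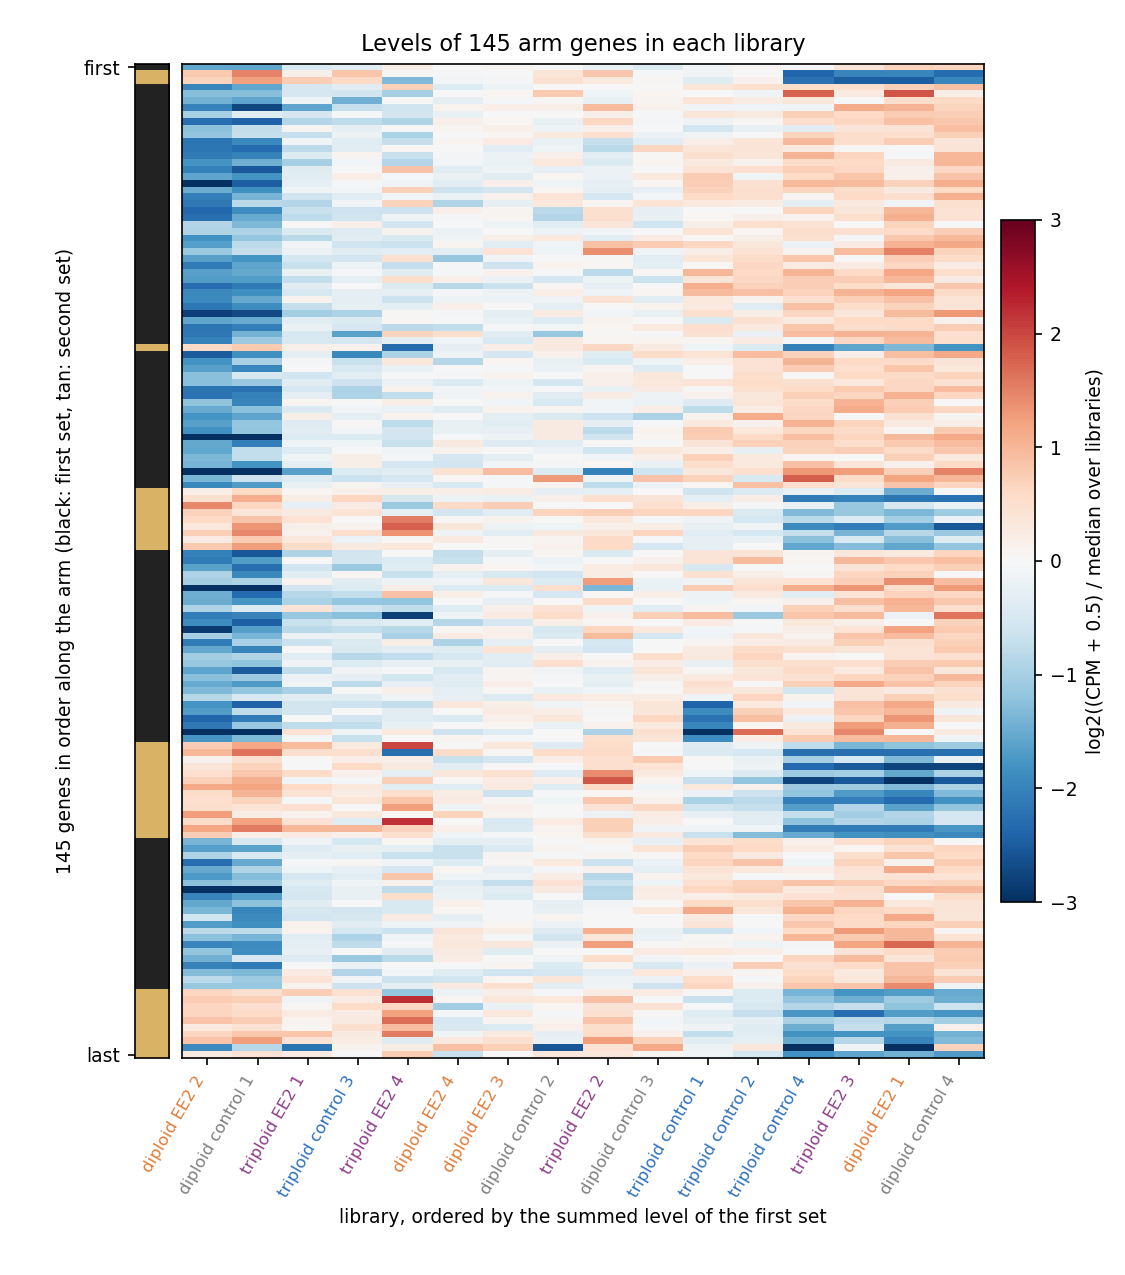
Rows are the 145 genes of the 2 sets in their order along the arm, columns are the 16 libraries ordered by the summed level of the first set, and colour is log2 of CPM + 0.5 relative to the median over libraries. Besides diploid EE2 replicates 2 and 1, which chose the sets, the first set is low in diploid control replicate 1, and the blocks of the second set are low in triploid control replicate 4, triploid EE2 replicate 3 and diploid control replicate 4.

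The first set held 67 clone-named genes, 25 zinc finger genes, 13 genes without a symbol, 2 U1 genes and both NLR-named genes. The second held 13 zinc finger genes, 13 clone-named genes and 10 without a symbol. Genes with an ordinary name, most of which lie beyond 72 Mb, were in neither set. The examples that follow were chosen after their values were seen.

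In the first set, si:dkey-16p19.8 (41311345 to 41313146) had 0.333, 8.87, 7.83 and 34.6 CPM in diploid control replicates 1 to 4, 20.2, 0, 23.2 and 16.8 CPM in diploid EE2, 15.3, 17.2, 8.96 and 30.4 CPM in triploid controls and 3.52, 2.57, 29.4 and 9.44 CPM in triploid EE2. It was at 0 in diploid EE2 replicate 2, and its highest level was in diploid control replicate 4. The unnamed gene ENSDARG00000098522 (52116776 to 52122494) was the highest of the set on average, with 1.67, 28.3, 17.1 and 48.6 CPM in diploid control replicates 1 to 4, 28.7, 0.753, 14.7 and 14.6 CPM in diploid EE2, 33.8, 28.2, 14.7 and 43 CPM in triploid controls and 12.99, 7.37, 50.3 and 22.7 CPM in triploid EE2. Diploid control replicate 1 and diploid EE2 replicate 2 were the low libraries for both genes. The zinc finger gene znf973 (37239091 to 37246482) had 0.167, 4.71, 3.22 and 10.2 CPM in diploid control replicates 1 to 4, 7.99, 0.126, 3.11 and 3.77 CPM in diploid EE2, 5.63, 4.504, 1.79 and 6.33 CPM in triploid controls and 1.66, 3.599, 5.02 and 3.96 CPM in triploid EE2. The NLR gene nlrc3l2 (33057844 to 33073382) had 0.167, 2.75, 3.32 and 5.41 CPM in diploid control replicates 1 to 4, 3.79, 0.439, 2.99 and 2.59 CPM in diploid EE2, 4.57, 4.94, 3.37 and 5.78 CPM in triploid controls and 2.49, 2.91, 5.42 and 6.498 CPM in triploid EE2, and was lowest in the same 2 libraries.

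In the second set, the zinc finger gene znf1121 (29848173 to 29854621) had 9.49, 4.08, 2.895 and 0.214 CPM in diploid control replicates 1 to 4, 0.406, 5.59, 3.05 and 2.95 CPM in diploid EE2, 2.82, 3.03, 5.795 and 0.183 CPM in triploid controls and 3.46, 5.66, 0.394 and 3.15 CPM in triploid EE2. Its 4 lowest libraries were the 4 of the second pattern. The zinc finger gene znf1093 (38254699 to 38259998), which lies alone among first-set genes, had 10.7, 7.301, 7.29 and 1.35 CPM in diploid control replicates 1 to 4, 2.03, 9.099, 6.96 and 4.95 CPM in diploid EE2, 5.45, 4.33, 6.53 and 1.1 CPM in triploid controls and 6.63, 9.51, 1.67 and 0.812 CPM in triploid EE2. In triploid EE2 replicate 4 it was lower still than in those 4.

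Near 71 Mb another pattern was seen in 3 genes, named after their values were seen. Among them, si:ch211-108c17.2 is also a member of the second set, with 0 and 3.26 CPM in diploid EE2 replicates 1 and 2. The neighbours ENSDARG00000101756 (70842085 to 70849761) and si:ch211-108c17.2 (70850583 to 70883663), and ENSDARG00000117400 (71953615 to 71962414), each had their 6 lowest levels in diploid control replicates 1 and 2, diploid EE2 replicates 1 and 2, triploid control replicate 4 and triploid EE2 replicate 1. ENSDARG00000117400 had 0, 0, 4.93 and 6.41 CPM in diploid control replicates 1 to 4, 0, 0, 5.35 and 5.54 CPM in diploid EE2, 3.69, 3.64, 4.004 and 0 CPM in triploid controls and 0, 3.34, 2.26 and 2.94 CPM in triploid EE2. It was at 0 in 6 libraries, which came from all 4 groups, and above 2 CPM in the other 10. For ENSDARG00000101756 the values were 0, 0.157, 5.79 and 5.27 CPM in diploid control replicates 1 to 4, 0, 0, 4.89 and 7.19 CPM in diploid EE2, 3.17, 4.76, 3.79 and 0.183 CPM in triploid controls and 0.138, 3.43, 4.14 and 4.26 CPM in triploid EE2, and the same 6 libraries were the lowest.

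Triploid EE2 replicate 4 had a further pattern, in which some second-set genes took part. Of all 1643 arm genes, 97, or 5.90%, were at least 3-fold above the median of the other 15 libraries there (with 0.5 CPM added), against 0.439% of the genes of other chromosomes in the same library. All 97 were above each of the other libraries, and 41 of them were among the tested genes. In the other 15 libraries the number of such arm genes was 0 to 24, and the highest was in diploid control replicate 1, where 2.35% of the genes of other chromosomes were also high. The 97 genes comprised 62 clone-named genes, 20 zinc finger genes, 13 without a symbol and 2 small RNA genes.

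These genes were clustered, as counted in uneven stretches whose bounds were set after the values were seen. Between 44 and 52 Mb, 50 of 238 arm genes were among them, between 59 and 64 Mb 23 of 156, and between 68 and 70 Mb 16 of 77. Between 28 and 44 Mb they were 6 of 506, and between 52 and 59 Mb 1 of 256. The clusters lay in part where second-set runs lay. Genes such as si:dkey-124l13.1, si:dkey-165b20.2 and znf1076 were also members of the second set. ENSDARG00000117620 (61071556 to 61081125) had 24.7 CPM in triploid EE2 replicate 4 and at most 0.343 CPM in any other library. The zinc finger genes znf1117 and znf974 had 7.92 and 7.41 CPM there, against at most 0.403 and 0.514 CPM elsewhere.

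**Figure D3:**
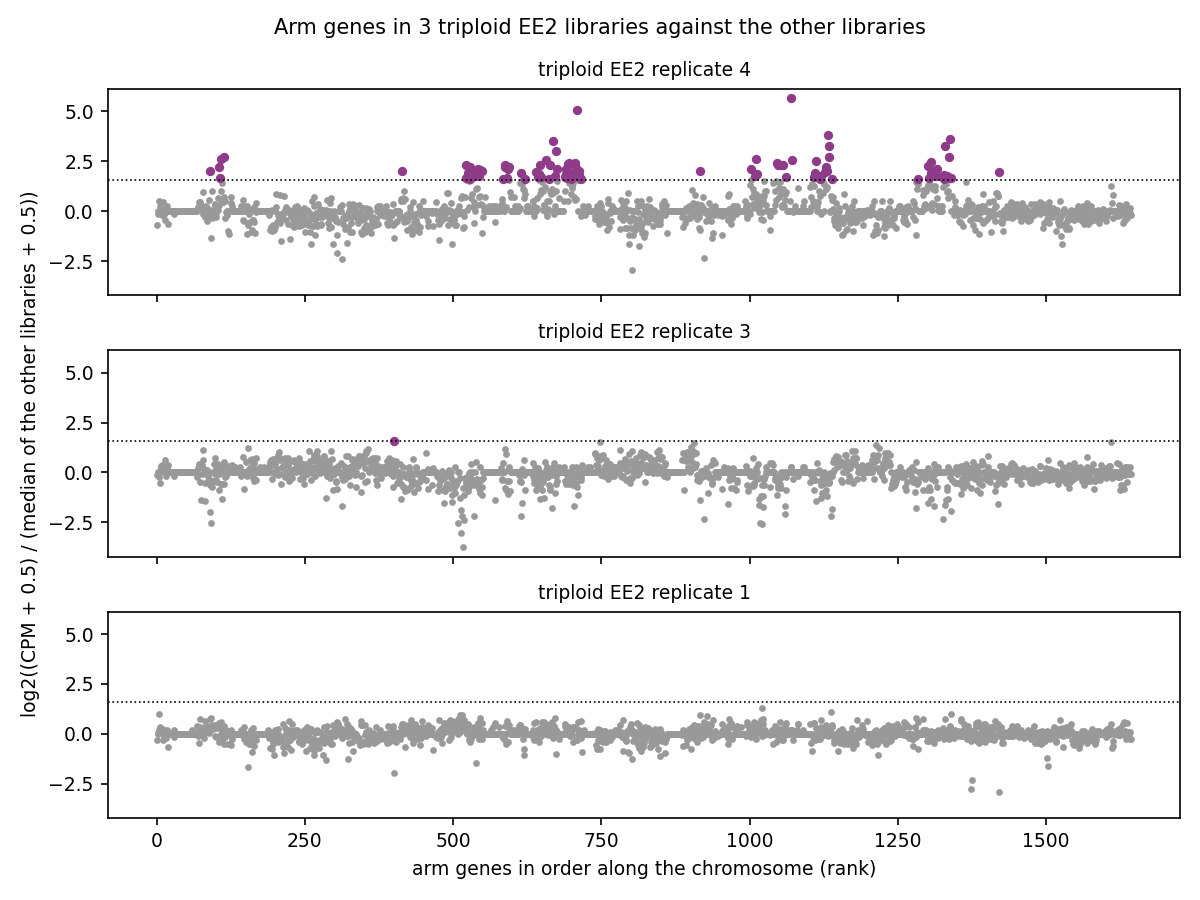
Each point is an arm gene in its order along the chromosome, and the y axis is its log2 ratio to the median of the other 15 libraries, with 0.5 CPM added, in 3 triploid EE2 libraries. Purple points are at least 3-fold higher: 97 genes in clusters in replicate 4, 1 in replicate 3 and 0 in replicate 1.

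Against this spread, few arm genes differed between the groups. The comparisons asked how ploidy and EE2 changed testis RNA, each within the levels of the other. Genes were called changed at an adjusted p under 0.05 by edgeR's quasi-likelihood test with Benjamini-Hochberg adjustment over all 23007 genes tested. The comparisons share groups, so their results are not independent.

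In triploid against diploid controls, 1 of 738 arm genes was called, and it was lower, where 2.74% of all genes tested were called. The median log2 fold change was -0.02 on the arm and -0.04 over all genes, and over the alternatives the arm median ran from -0.06 to 0.02. The called gene was ms4a17a.11, of a family of proteins that span the membrane 4 times, at 76575585 to 76588333. It had 10.8, 3.93, 6.65 and 6.195 CPM in diploid control replicates 1 to 4, 13.7, 10.7, 13.5 and 10.3 CPM in diploid EE2, 2.199, 3.12, 3.69 and 3.21 CPM in triploid controls and 6.98, 18.2, 5.51 and 4.57 CPM in triploid EE2. The 4 triploid controls were all below the 4 diploid controls. Its log2 fold change was -1.15 ± 0.27 (SE), with an adjusted p of 0.0348 by edgeR. The call was lost in 7 of the 15 fits that left out 1 library and in 4 of the 8 other alternatives. Among the latter was inclusion of triploid EE2 replicate 2, where the adjusted p was 0.195 by edgeR. The count of arm genes called was 5, all higher in triploids, without diploid control replicate 1. It was 2 when diploid control replicate 2 was left out, and 0 without diploid control replicate 3 or 4 or triploid control replicate 1, 2 or 4.

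**Figure D4:**
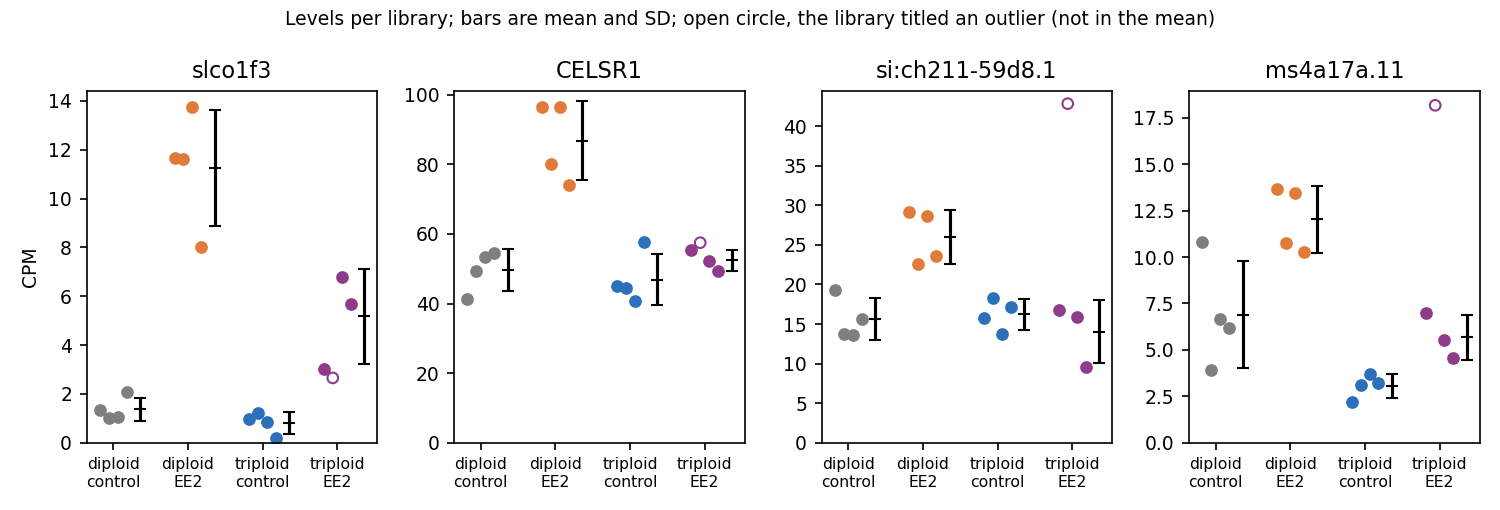
CPM of 4 arm genes in each library by group, with the mean and SD of the libraries used in the tests as black bars and the library titled an outlier as an open circle. The organic anion transporter gene slco1f3 was higher in both EE2 groups, while CELSR1 was higher in diploid EE2 and lay between 40.7 and 57.6 CPM in all 8 triploid libraries.

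With EE2 in diploids, 3 arm genes rose and 2 fell, where 2.36% of all genes tested were called. The median log2 fold change of the arm was -0.12, that of all genes -0.01, and 37.9% of the arm genes and 48.1% of all genes were above 0. Without diploid EE2 replicate 2 the arm median was -0.07. The count of 5 called genes was 9 without diploid control replicate 1. It was 2 or 3 without any 1 of diploid control replicates 2 and 3, diploid EE2 replicates 1 to 3, the 4 triploid controls and triploid EE2 replicates 1, 3 and 4. Leydig cell markers moved in the same comparison: 4 of 5 fell, and their summed level was 916 to 3498 CPM in diploid controls and 122 to 501 CPM in diploid EE2. Smooth muscle markers rose in 3 of 4 cases, from 237 to 462 CPM to 878 to 1074 CPM. Erythrocyte markers, 2 genes of which 1 rose by edgeR, summed to 2.16 to 12.8 CPM in the controls and 22.1 to 476 CPM with EE2. DESeq2 and limma-voom called 0 of these 2, and edgeR 0 to 2 when 1 library was left out. No matched marker of these 3 lists was at 0 throughout. Only 2 of 4 erythrocyte symbols were matched. The smooth muscle symbol myh11a was not matched, and TAGLN was matched by more than 1 gene. The part of cell composition in the arm's changes was not tested.

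The largest change was that of slco1f3, a gene of the family that carries organic anions such as steroid conjugates and bile salts, at 77322543 to 77332032. It had 1.33, 1.02, 1.07 and 2.07 CPM in diploid control replicates 1 to 4, 11.7, 11.6, 13.8 and 8.01 CPM in diploid EE2, 0.968, 1.21, 0.843 and 0.183 CPM in triploid controls and 3.04, 2.66, 6.79 and 5.69 CPM in triploid EE2. Every diploid EE2 library was above every diploid control. The log2 fold change was 3.01 ± 0.38, with an adjusted p of 0.000877 by edgeR, and the call held under every alternative tried.

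CELSR1, named for a large cadherin receptor that sets planar cell polarity in vertebrates, lies at 28190013 to 28335184. It had 41.3, 49.2, 53.5 and 54.5 CPM in diploid control replicates 1 to 4, 96.5, 80.1, 96.6 and 74.2 CPM in diploid EE2, 45.03, 44.4, 40.7 and 57.6 CPM in triploid controls and 55.4, 57.5, 52.4 and 49.3 CPM in triploid EE2. Its 4 diploid EE2 libraries were above the other 12, and its log2 fold change with EE2 in diploids was 0.81 ± 0.13 (adjusted p 0.00401 by edgeR). This call too held under every alternative tried. The clone-named gene si:ch211-59d8.1 (42412212 to 42429712) rose by 0.74 ± 0.18 (adjusted p 0.0427 by edgeR), from 13.6 to 19.3 CPM in diploid controls to 22.5 to 29.1 CPM, without overlap. That call was lost in 10 of the 15 fits that left out 1 library and in 3 of the 8 other alternatives. Among the latter was inclusion of triploid EE2 replicate 2, where the adjusted p was 0.323 by edgeR.

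The 2 genes that fell lie near 74 Mb. For si:dkey-262g12.10 (73757963 to 73773908) the diploid controls had 8.82 to 10.3 CPM and the diploid EE2 libraries 5.58 to 7.86 CPM. For si:cabz01069016.2 (73973242 to 73983880) they had 21.51 to 24.02 and 15.7 to 18.7 CPM. Neither pair of groups overlapped, and the log2 fold changes were -0.54 ± 0.13 and -0.40 ± 0.10 (adjusted p 0.0451 and 0.0457 by edgeR). Both calls were close to the threshold and were lost in 13 and 14 of the 15 fits that left out 1 library. Each was also lost in 3 of the 8 other alternatives.

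With EE2 in triploids, 1 arm gene rose, slco1f3, where 0.104% of all genes tested were called. Its log2 fold change was 2.66 ± 0.42, with an adjusted p of 0.0340 by edgeR. The 4 triploid EE2 libraries, the titled outlier included, had 2.66 to 6.79 CPM and the triploid controls 0.183 to 1.21 CPM. Direction and size were kept in each alternative, with log2 values of 2.33 to 2.94. The call, however, was lost with limma-voom (adjusted p 0.0997) and with the replicate block. It was also lost without diploid EE2 replicate 1 or 2, triploid control replicate 1, 3 or 4, or triploid EE2 replicate 1, 3 or 4, with adjusted p up to 0.151. The arm median was -0.05, that of all genes 0.01. Its sign was not stable: it was 0.002 with the titled outlier included, 0.006 without triploid control replicate 2 and -0.07 without triploid EE2 replicate 3 (log2). Among Leydig markers 2 of 5 fell here.

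Under EE2, triploids differed from diploids in 10 arm genes, 3 higher and 7 lower, where 5.82% of all genes tested were called. The arm median was 0.07, that of all genes 0.00. It was -0.01 without diploid EE2 replicate 2, 0.02 without triploid EE2 replicate 3 and 0.14 without diploid EE2 replicate 1. The count of called genes was 16 without diploid control replicate 1, 6 when triploid control replicate 2 was left out, 5 without triploid EE2 replicate 3, 4 without diploid EE2 replicate 1, 3 without diploid EE2 replicate 3 and 2 without triploid EE2 replicate 4. With the titled outlier included it was 2. Of the 10 genes, 2 lie below 30 Mb, 2 between 30 and 71 Mb and 6 beyond 71 Mb, and 1 of them, ENSDARG00000117248, is in the second set. Sertoli cell markers were lower in triploids in 3 of 4 cases, with sums of 1273 to 1778 CPM in diploid EE2 and 434 to 534 CPM in triploid EE2. Their part in these changes was not tested.

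Among the genes lower in triploids under EE2, CELSR1 had a log2 fold change of -0.73 ± 0.14 (adjusted p 0.00697 by edgeR) and was called under every alternative tried. The clone-named si:dkey-193i10.4 (71132844 to 71289741) had 3.995, 3.77, 3.86 and 5.198 CPM in diploid control replicates 1 to 4, 8.67, 5.08, 8.397 and 5.65 CPM in diploid EE2, 2.55, 4.16, 2.63 and 3.48 CPM in triploid controls and 2.76, 12.2, 2.66 and 1.52 CPM in triploid EE2. Its log2 fold change was -1.57 ± 0.28 (adjusted p 0.00410 by edgeR). With the titled outlier, which had 12.2 CPM, the value was -0.54 with an adjusted p of 0.764. In si:ch211-59d8.1 the outlier was likewise the highest library, with 42.9 CPM, and the remaining triploid EE2 libraries had 9.54 to 16.8. The log2 fold change of si:ch211-59d8.1 went from -0.88 ± 0.20 (adjusted p 0.0157 by edgeR) to -0.29 with that library. ms4a17a.11 was lower by -1.07 ± 0.28 on the log2 scale (adjusted p 0.0380 by edgeR), and its value with the outlier was -0.45. In the 15 fits that left out 1 library, the call was lost in 2 for si:ch211-59d8.1 and in 6 for ms4a17a.11.

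GRAMD4 (ENSDARG00000069171), named for a protein with a lipid-binding GRAM domain, lies at 28062473 to 28161198. It had 14.8 to 18.6 CPM in diploid EE2 and 7.62 to 11.5 CPM in triploid EE2, a log2 fold change of -0.76 ± 0.18 (adjusted p 0.0262 by edgeR). The call of GRAMD4 was lost in 5 of the 15 fits that left out 1 library and in 1 of the 8 other alternatives, with adjusted p up to 0.13. CPNE8 (75310097 to 75421099), named for a copine, a calcium-dependent membrane-binding protein, had a log2 fold change of -0.56 ± 0.16 (adjusted p 0.0486 by edgeR). Its call was lost in 12 of the 15 fits that left out 1 library and in 4 of the 8 other alternatives. The unnamed gene ENSDARG00000117248 (45535334 to 45536457) had -1.90 ± 0.48 (adjusted p 0.0313 by edgeR), but its groups overlapped. Its call was lost in 4 of the 15 fits that left out 1 library. It was also lost in 3 of the 8 other alternatives, among them the titled outlier included and limma-voom.

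The 3 genes that were higher in triploids lie between 72 and 74 Mb. ENSDARG00000090942 (72628893 to 72643171) had 24.9 to 38.0 CPM in diploid EE2 and 43.9 to 49.6 CPM in the triploid EE2 libraries tested. Its log2 fold change was 0.68 ± 0.15 (adjusted p 0.0174 by edgeR). Its neighbour si:cabz01054394.6 (72603266 to 72609810) had 6.91 to 10.8 and 12.5 to 15.9 CPM, a log2 fold change of 0.68 ± 0.18 (adjusted p 0.0381 by edgeR). For si:cabz01021433.2 (73241193 to 73256421) the log2 fold change was 0.41 ± 0.11 (adjusted p 0.0457 by edgeR). With the titled outlier included, the adjusted p of these 3 genes was 0.0719, 0.0925 and 0.323. In the 15 fits that left out 1 library their calls were lost 3, 9 and 12 times. The call of si:cabz01021433.2 was lost in 4 of the 8 other alternatives, among them limma-voom and no filter on low counts.

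For the interaction of ploidy and EE2, no arm gene was called by edgeR's quasi-likelihood test, by DESeq2 or by limma-voom, where 0.0% of all genes tested were called by edgeR. At an unadjusted p under 0.05, edgeR gave 30 of 738 arm genes and 1223 of 23007 genes in all. For CELSR1 the interaction was -0.65 ± 0.19 on the log2 scale, with an adjusted p of 0.729, so its different response to EE2 in diploids and triploids did not pass the test. For si:ch211-59d8.1 it was -0.95 ± 0.26 with an adjusted p of 0.663.

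**Figure D5:**
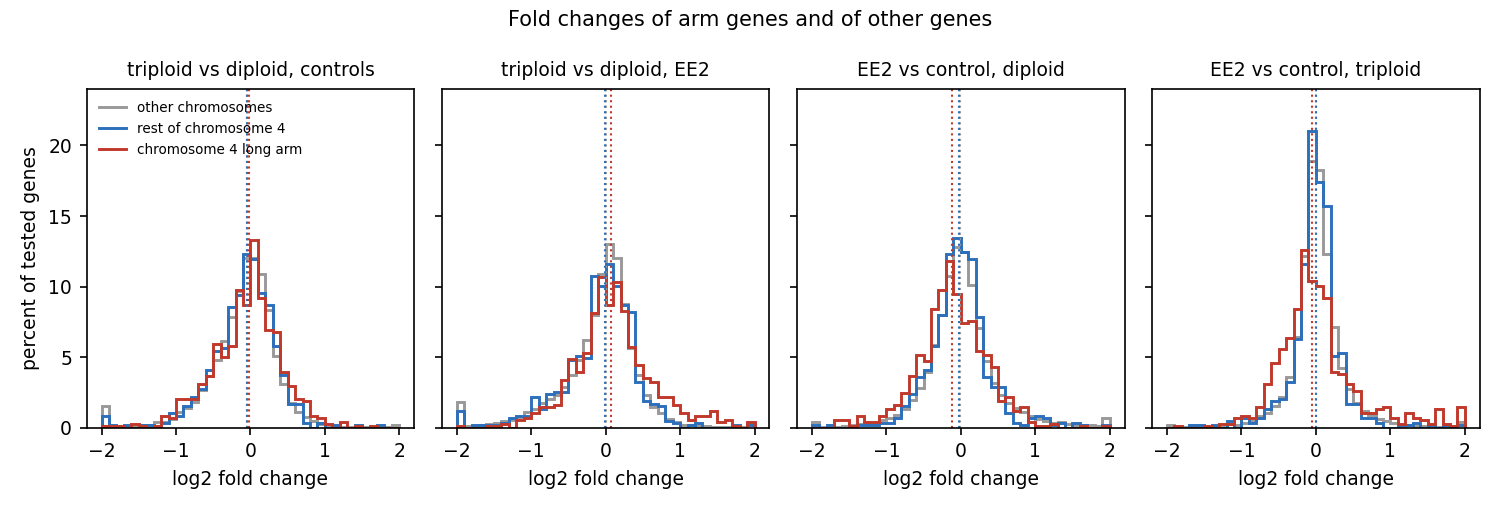
Distribution of log2 fold changes over tested genes for the long arm (red), the rest of chromosome 4 (blue) and the other chromosomes (grey) in the 4 comparisons, in bins of 0.1 with values beyond 2 placed in the end bins, and dotted lines at the medians. The arm's median with EE2 in diploids was -0.12 and that of all genes -0.01.

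Of the 112 tested zinc finger genes of the arm, edgeR and limma-voom called 0 in each of the 4 comparisons, and DESeq2 called 1, znf1148, with EE2 in diploids (adjusted p 0.0472). At an unadjusted p under 0.05 edgeR gave 3 and 9 for the ploidy difference (controls, then EE2), and 7 and 9 for EE2 in diploids and triploids. In the same order, that limit was met by 17.6%, 19.6%, 16.9% and 5.42% of all genes tested. The median log2 fold changes of the arm's zinc finger genes were 0.04 and 0.19 for the ploidy difference (controls, then EE2), and -0.22 and -0.02 for EE2 in diploids and triploids. Among 102 tested zinc finger genes off the arm the same medians were -0.04, 0.08, -0.15 and -0.02, and 1 was higher and 3 were lower in triploids under EE2. By edgeR the zinc finger gene with the smallest p, znf1148 (42152636 to 42171503), had 2.68 to 3.66 CPM in diploid controls and 4.36 to 5.64 CPM in diploid EE2, a log2 difference of 0.72 ± 0.21 (adjusted p 0.0957 by edgeR). The next, znf1017 (71819777 to 71824845), had -0.95 ± 0.31 (adjusted p 0.131 by edgeR).

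Neither NLR-named gene of the arm was called by edgeR, DESeq2 or limma-voom, and 0 had an unadjusted p under 0.05 by edgeR. For nlrc3l2, a first-set gene, values within diploid controls ran from 0.166 to 5.41 CPM. Of 13 tested NLR genes off the arm, edgeR called 1, lower in triploid controls. Of the 22 tested U1 genes, edgeR and limma-voom called 0 in each comparison, while with EE2 in diploids DESeq2 called 3 and 11 had an unadjusted p under 0.05 by edgeR. In that comparison 16.9% of all genes tested had an unadjusted p under 0.05. The share of all genes called by DESeq2 is not given. The median log2 fold change of the U1 genes there was -1.19, and diploid control replicate 1 had the highest U1 sum, as given above. The part of that library in this value was not tested. The U1 gene ENSDARG00000113194 was lower with EE2 in diploids by -1.38 ± 0.38 on the log2 scale (adjusted p 0.0769 by edgeR, 0.0307 by DESeq2). The U1 gene ENSDARG00000115802 (50989958 to 50990121) had 48.0 CPM in triploid EE2 replicate 4 and 0.394 to 1.71 CPM in the rest of its group. Its log2 difference between triploids and diploids under EE2 was 4.33 ± 1.22 with that library (adjusted p 0.0533 by edgeR) and -0.51 without it. That adjusted p was 0.0451, 0.0264 and 0.0241 without diploid control replicate 1, triploid EE2 replicate 1 or triploid EE2 replicate 3.

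Of 43 symbols listed for a role at heterochromatin, 28 were matched and tested. By edgeR 1 was lower in triploids in each of the ploidy comparisons, with median log2 fold changes of 0.13 in controls and 0.15 under EE2. For these comparisons DESeq2 called 3 and 4, limma-voom called 1 and 1, and 6 and 5 had an unadjusted p under 0.05 by edgeR. For EE2 edgeR and limma-voom called 0 of these, while DESeq2 called 1 in diploids and 0 in triploids, and 5 and 2 had an unadjusted p under 0.05 by edgeR. The shares of all genes called by DESeq2 and limma-voom are not given. Of 15 symbols listed for 5S RNA handling and transcription, 8 were matched and tested. None of these was named for TFIIIA, the 5S transcription factor, so that gene was not tested here by name. Of the 8, 0 were called in each comparison by edgeR, DESeq2 or limma-voom. An unadjusted p under 0.05 by edgeR was met by 2, both for triploid against diploid controls. For both lists, these unadjusted counts are to be read beside the share of all genes tested. It was 17.6% and 19.6% for the ploidy difference (controls, then EE2), and 16.9% and 5.42% for EE2 in diploids and triploids. For the remaining families, edgeR counts are to be read beside the share of all genes called, 2.74% and 5.82% for the ploidy difference (controls, then EE2), and 2.36% and 0.104% for EE2 in diploids and triploids. Arm genes with an ordinary name, 47 tested, gave 1 lower in triploid controls, 4 lower in triploids under EE2, 2 higher with EE2 in diploids and 1 higher with EE2 in triploids. Clone-named genes of the arm, 429 tested, gave 2 higher and 2 lower in triploids under EE2, and 1 higher and 2 lower with EE2 in diploids. Among the 126 tested genes without a symbol, 1 was higher and 1 lower in triploids under EE2.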

How the data were processed

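Total RNA of zebrafish testes was sequenced as strand-specific libraries after ribosomal RNA depletion, per the labels. The deposited table holds whole-number counts of read pairs per gene, made with featureCounts 2.0.6 on STAR alignments against Ensembl 113 of GRCz11, reverse strand, exons summed per gene, per the file headers. The other column used, exon length in bases, is as deposited. No option for read pairs with several alignments was set, per the file headers.

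From the counts, 15 libraries were fitted together with edgeR 4.0.16 in R 4.3.3 (low counts filtered by group, TMM scaling, robust quasi-likelihood test, Benjamini-Hochberg adjustment over 23007 genes, threshold 0.05). CPM values use the scaled library sizes, and their errors are SDs between libraries. Errors of log2 fold changes are SEs. Wilson intervals of 95% cover counting error only. Depth was 7052508 to 17369549 read pairs per library. The test was checked on simulated data with genes drawn independently, so that check does not cover levels shared by blocks of arm genes.

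Genes named in the comparisons were, by rule, the 6 largest rises and falls among called genes with groups that did not overlap, the 8 highest per kb, genes called in 2 or more comparisons and the 2 smallest p of each family. Genes outside it (znf1105, znf1068, znf973, znf1121, znf1093, znf1117, znf974 and others of the library patterns) were chosen after their values were seen. Members and lists were chosen with earlier results of these data known. Symbols came from a reference table that matched 1401 of 1643 arm genes.

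Alternatives were DESeq2 1.42.0, limma-voom (limma 3.58.1), other scaling factors, no filter, an arm start at 30 Mb, inclusion of the titled outlier, a replicate block and leaving out each library. Thresholds of the library patterns were varied as alternatives chosen after seeing the data. Same-numbered libraries did not deviate together, with correlations of -0.169 to 0.158 over 21 pairs, so the numbers were not taken to pair samples.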

Additional observations from a re-analysis of the deposited data

Results flagged for a closer look

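In groups of 4 libraries, 5 values of the named arm genes lay far from the other 3 of their group, among 120 groups checked, where chance alone gives about 1 in 20. A count of 5 in 120 is not above that rate. The U1 gene ENSDARG00000115802 had 48.0 CPM in triploid EE2 replicate 4 and 0.394 to 1.71 CPM in the rest. The gene si:dkey-193i10.4 had 12.2 CPM in triploid EE2 replicate 2, the library titled an outlier, against 1.52 to 2.76 CPM, and 5.198 CPM in diploid control replicate 4, against 3.77 to 4.00 CPM. The gene si:dkey-29j8.3 had 22.6 CPM in diploid EE2 replicate 1, against 72.3 to 77.1 CPM. The chaperonin gene cct2 had 27.2 CPM in diploid EE2 replicate 3, against 34.7 to 35.9 CPM.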

How the results depend on the processing

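Counts of called arm genes depended on the processing, and the cause was not tested. The shares of all genes called that are given above are those of the main edgeR fit. Such shares are not given for the alternatives or the fits without a library. Counts under these, here and above, therefore do not tell the arm from other genes. For triploid against diploid controls the count of 1 became 0 with the titled outlier included, 0 with limma-voom and 6 with both diploid replicates 1 left out, and leaving out 1 library gave 0 to 5. For triploid against diploid under EE2 the count of 10 became 2 with the outlier, 17 with DESeq2 and 16 without both diploid replicates 1, and 2 to 16 without 1 library. For EE2 in diploids the count of 5 became 2 with the outlier, 15 with DESeq2, 2 without the filter on low counts and 10 without both diploid replicates 1, and 2 to 9 without 1 library. For EE2 in triploids the count of 1 became 0 with limma-voom, and 0 to 1 without 1 library. The interaction count was 0 throughout (0 to 0). With the replicate block the counts were 0 for triploid against diploid controls, 2 for EE2 in diploids and 0 for EE2 in triploids. The U1 gene ENSDARG00000115802 went to -0.51 (log2, adjusted p 0.816) without triploid EE2 replicate 4, against 4.91 at the other end, without triploid EE2 replicate 3.

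Under thresholds chosen after seeing the data, the first set of 109 genes held 63 at 8-fold and 50 at 5 CPM, and the second set of 36 held 23 and 5. Chosen instead from diploid control replicates 4 and 1, also picked after the patterns were seen, the sets held 98 and 78 genes. Of these, 81 and 26 were shared. Genes near 0 in some libraries and present in others numbered 54 with near 0 set to 0.3 CPM and 56 with presence set to 1 CPM.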

Other observations

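Genes on unplaced scaffolds and the mitochondrion met the on and off criterion about as often as the arm: 11 of 268 tested, 4.10%, against 29 of 738 on the arm. Across the 16 libraries, deviations of arm genes from the mean correlated at 0.77 for diploid control replicate 1 and diploid EE2 replicate 2. This pair, already seen to share the first pattern, had the highest arm value of all pairs. Genes of other chromosomes gave 0.12 in the same libraries. The lowest arm value was -0.66, for diploid control replicate 4 and diploid EE2 replicate 2. These are descriptions across genes, which are not independent replicates.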
